A study of Homo sapiens with 15 samples.

Results

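Exon fragments of 7 long noncoding RNA (lncRNA) genes were followed in small RNA sequencing of 15 libraries: MALAT1, NEAT1, GAS5, SNHG1, SNHG5, SNHG29 and ZFAS1. The genes were taken by name from a deposited table of 50037 genes, all 7 were in it, and 6 passed the filter on low counts. Wild-type cells labelled HEK-293, a human embryonic kidney line, were harvested after 18 h in 3 groups of 5 libraries. The first group received the lipid products that lipoprotein lipase (LPL) releases from very low-density lipoprotein (VLDL) together with 20 µM GKT136901, which blocks NOX1 and NOX4 (oxidases that make reactive oxygen from NADPH). The LPL:VLDL group received the products without the inhibitor, and the pcDNA:VLDL group received VLDL (the labels do not say what pcDNA was). All groups thus received VLDL or its products, and each of experiments 2 to 6 gave 1 library to each group.

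MALAT1 and NEAT1 are nuclear RNAs: MALAT1 collects in nuclear speckles, where splicing factors are stored, and NEAT1 is the RNA on which paraspeckles are built. GAS5, SNHG1, SNHG5, SNHG29 and ZFAS1 are host genes, whose introns carry box C/D small nucleolar RNAs (snoRNAs), the guides of ribose methylation on ribosomal and other RNAs. After splicing the snoRNA is trimmed out of the intron, while the joined host exons are exported and, for hosts such as GAS5 and SNHG1, broken down by nonsense-mediated decay. A read on an exon in a small RNA library is a fragment, so the values below are levels of fragments and not of full-length transcripts.

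The sequences of the most counted snoRNA of each host are shown first, because they hold most of the reads of these loci, with the 2 snoRNAs that lie in host exons and the small RNA cut from the end of MALAT1. Capitals mark the C box (TGATGA, within the first 20 bases) and the D box (CTGA, within the last 20 bases), the letters by which the snoRNA proteins bind. Of the 26 snoRNAs of the 5 hosts, 22 had a sequence in the GENCODE transcripts (GRCh38), all 22 held CTGA in that window and 17 held both boxes in these letters on the transcript's strand. SNORD26 holds only the D box in these letters.
SNORD44: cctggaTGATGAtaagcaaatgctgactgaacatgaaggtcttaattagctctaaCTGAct
SNORD26: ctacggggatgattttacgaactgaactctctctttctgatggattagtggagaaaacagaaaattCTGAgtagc
SNORD50A: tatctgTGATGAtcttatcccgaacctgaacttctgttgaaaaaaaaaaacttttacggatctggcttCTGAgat
SNORD49A: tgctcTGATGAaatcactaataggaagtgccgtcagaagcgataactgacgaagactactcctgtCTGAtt
SNORD12: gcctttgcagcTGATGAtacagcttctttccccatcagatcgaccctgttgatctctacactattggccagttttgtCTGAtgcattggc
SNORD25: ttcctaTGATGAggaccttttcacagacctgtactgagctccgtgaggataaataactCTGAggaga
SNORD49B: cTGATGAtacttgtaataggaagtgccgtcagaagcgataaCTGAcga
MASCRNA: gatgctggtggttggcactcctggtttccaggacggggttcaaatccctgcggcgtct
SNORD44 is carried by GAS5 (chr1:173865968-173866028, minus strand), SNORD26 by SNHG1 (chr11:62855292-62855366, minus strand) and SNORD50A by SNHG5 (chr6:85677294-85677368, minus strand). SNORD49A is carried by SNHG29 (chr17:16440036-16440106, plus strand) and SNORD12 by ZFAS1 (chr20:49280683-49280772, plus strand). SNORD25 (chr11:62855565-62855631, minus strand) lies with all 67 of its bases in an exon of SNHG1, and 29 of the 48 bases of SNORD49B (chr17:16439509-16439556, plus strand) lie in an exon of SNHG29. SNORD49A and SNORD49B share a run of 35 bases. MASCRNA (chr11:65506117-65506174, plus strand), a transfer RNA-like piece released from the MALAT1 end, has no capitals.

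The place of the exons set how much of each gene could be counted, since reads over exons of more than 1 gene were left out by the counting. MALAT1 (chr11:65497738-65506516, plus strand, GRCh38) has 8545 exon bases, and 7205 of them (84.3%) are also exon of TALAM1, its antisense partner. Its 244 counts therefore came from 1340 bases in 2 stretches near its start, of 997 bases (chr11:65497738-65498734) and 343 bases (chr11:65498969-65499311). TALAM1 itself had 50 counts on 916 bases of its own, and MASCRNA, wholly inside MALAT1, had a count of 0 in every library. Without strand in the counting, reads of MALAT1 and TALAM1 are not told apart within either set of bases.

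NEAT1 (chr11:65422798-65445540, plus strand) shares only 100 of its 22743 exon bases, with the microRNA gene MIR612, which was listed at 0. GAS5 (chr1:173863901-173869045, minus strand) shares 16.2% of its 1011 exon bases, 121 of them with ZBTB37 and 41 with GAS5-AS1, both on the other strand, and 2 with SNORA103. SNHG29 (chr17:16438987-16470648, plus strand) shares 481 of 2516, of which 452 are with LRRC75A on the other strand. SNHG1 (chr11:62851978-62855885, minus strand) shares 67 of 1523, all with SNORD25. SNHG5 (chr6:85677007-85678733, minus strand, 507 exon bases) and ZFAS1 (chr20:49278178-49289260, plus strand, 1030 exon bases) share none.

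The same layout was seen over the snoRNA genes of the SNORD names in the whole table. Of the 16 that lie wholly in exons of other genes, 0 had a count, against 223 of the 378 (59.0%) that overlap no other exon. SNORD25 is 1 of those 16. A level of SNORD25 or MASCRNA could therefore not be read from these counts, and a 0 there says nothing of the RNA.

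**Figure D1:**
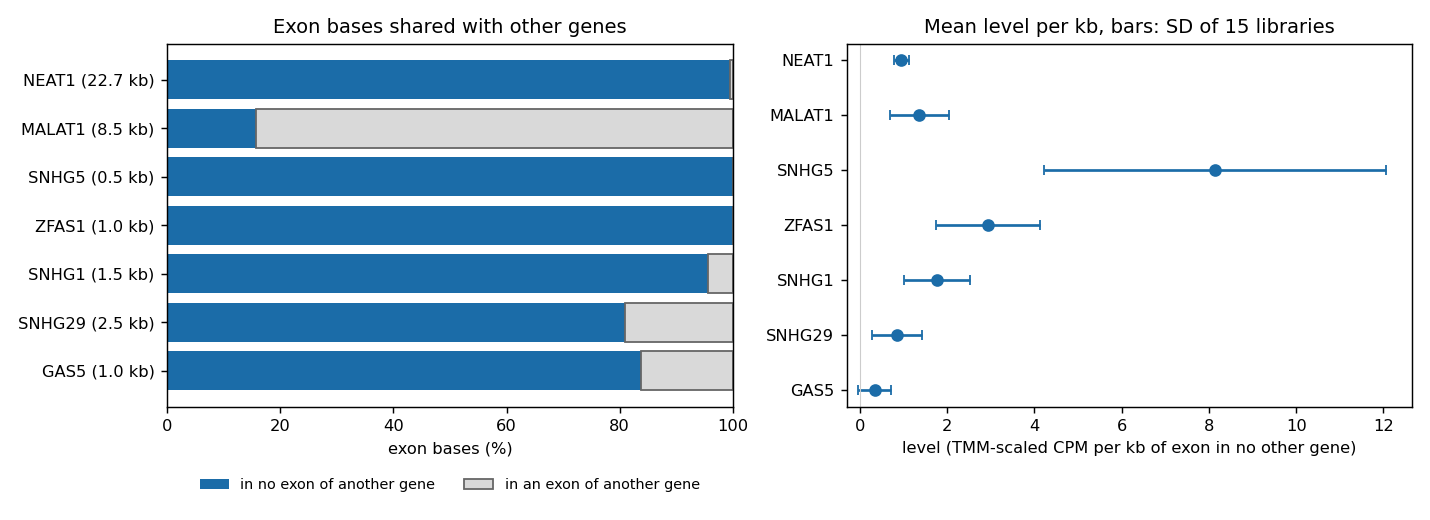
Left, share of each gene's exon bases (%) that lie in no exon of another gene (blue) or in one (grey), with exon length in kb. Right, mean level in TMM-scaled CPM per kb of unshared exon, bars SD over 15 libraries. MALAT1 stands apart on the left with 84.3% shared, and SNHG5 on the right with 8.14 per kb.

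Together the 7 lncRNAs held 4606 counts, or 34.7 CPM of all counts (CPM, counts per M). NEAT1 gave 2821 of these, SNHG5 537, ZFAS1 396, SNHG1 348, MALAT1 244, SNHG29 222 and GAS5 38. Ranked by total count among 18004 lncRNA genes, of which 5397 had a count, NEAT1 was at place 5, SNHG5 at 15, ZFAS1 at 20, SNHG1 at 24, MALAT1 at 37, SNHG29 at 41 and GAS5 at 524. These totals depend on gene length, and NEAT1 is by far the longest of the 7.

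Per kb of unshared exon the order was different. SNHG5 averaged 8.14 ± 3.92 TMM-scaled CPM per kb (CPM after edgeR's trimmed-mean scaling, SD, n = 15), ZFAS1 2.93 ± 1.18, SNHG1 1.77 ± 0.747, MALAT1 1.37 ± 0.677, NEAT1 0.952 ± 0.178, SNHG29 0.855 ± 0.573 and GAS5 0.336 ± 0.372. SNHG5 was above ZFAS1 in 14 of 15 libraries, and their means were more than 1 SD apart. Every other pair of neighbours in this order lay within 1 SD, and the order within the pair held in 9 to 13 of the 15 libraries. Over its whole exon length MALAT1 would stand at 0.214 per kb, below GAS5, so its place depends on leaving out the bases shared with TALAM1.

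Library totals ran from 5.08 M (GKT136901 + LPL:VLDL, experiment 3) to 9.76 M counts. In a library, a count of 0 allows a level of up to 0.307 to 0.591 CPM (3 counts of the total), which covers counting error only. Of 18 HEK-293 markers, 13 had a count, 479 in all, and their summed level was 1.11 to 4.24 CPM of the total counts with GKT136901 + LPL:VLDL, 2.03 to 7.62 with LPL:VLDL and 1.14 to 6.91 with pcDNA:VLDL. Of 18 myeloid markers, 17 had a count, 6785 in all, at 28.9 to 81.1, 28.1 to 126 and 41.8 to 108 CPM in the same groups. LIN28B, NEFM, INA, SALL1 and STMN2 of the HEK-293 list were at 0, as was AIF1 of the myeloid list. The title of the series speaks of macrophages, so the identity of the cells is uncertain, and the part of cell type in any value below was not tested. In a bulk library, fewer cells of a type and less RNA per cell cannot be told apart.

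NEAT1, which was measured with the lowest spread of the 7, was higher with the hydrolysis products than with VLDL in every experiment on the TMM scale, but no difference passed the test. Its TMM-scaled CPM in experiments 2 to 6 were 22.2, 26.7, 18.96, 26.4 and 24.0 with GKT136901 + LPL:VLDL, 20.3, 18.7, 18.6, 25.6 and 26.3 with LPL:VLDL, and 13.9, 18.6, 16.2, 24.8 and 21.8 with pcDNA:VLDL. The 3 groups overlapped, and the pcDNA:VLDL library of experiment 2 was the lowest of all. The means were 23.7 ± 3.21, 21.9 ± 3.76 and 19.1 ± 4.34 (SD, n = 5 each) in that order.

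With LPL:VLDL over pcDNA:VLDL, NEAT1 differed by 0.20 on the log2 scale (SE 0.25, edgeR quasi-likelihood test, adjusted p = 0.999), and it was higher in 5 of 5 experiments, in experiment 3 by little (18.70 against 18.65). This difference was 0.093 without the pcDNA:VLDL library of experiment 2, 0.099 without the LPL:VLDL library of experiment 6, 0.31 without the pcDNA:VLDL library of experiment 5 and 0.096 by library-size scaling. Of the 4099 genes tested, 3.44% were higher in 5 of 5, and by CPM of the total counts NEAT1 was higher in 4 of 5. On that scale it was lower in experiment 3 (14.3 against 18.8), where the LPL:VLDL library had the lowest TMM factor, 0.765. With GKT136901 + LPL:VLDL over pcDNA:VLDL it differed by 0.31 (SE 0.25, edgeR adjusted p = 0.999) and was higher in 5 of 5 experiments on both scales, as were 3.66% of genes by TMM-scaled CPM. Without the pcDNA:VLDL library of experiment 2 that difference was 0.21. With GKT136901 + LPL:VLDL over LPL:VLDL it differed by 0.11 (SE 0.25, edgeR adjusted p = 1.00) and was higher in 4 of 5; with a library left out in turn it ran between 0.063 and 0.18. These comparisons share libraries, so they are not independent. No other tested lncRNA was higher in 5 of 5 experiments in any comparison and none was lower in 5 of 5, where 3.46% of genes were lower for LPL:VLDL over pcDNA:VLDL, 3.2% were higher and 3.32% lower for GKT136901 + LPL:VLDL over LPL:VLDL, and 3.73% were lower for GKT136901 + LPL:VLDL over pcDNA:VLDL. With the experiment in the model the first 2 differences were 0.21 and 0.33 with an SE of 0.16 each, and the second had an unadjusted p of 0.0531 and an edgeR adjusted p of 0.997.

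MALAT1 was low and scattered. Its counts in experiments 2 to 6 were 13, 10, 15, 12 and 28 with GKT136901 + LPL:VLDL, 0, 13, 10, 27 and 11 with LPL:VLDL, and 39, 26, 18, 13 and 9 with pcDNA:VLDL. The library listed at 0 and the one with the most counts, 39, both came from experiment 2, and the groups overlapped. Means were 1.91 ± 0.770, 1.48 ± 1.07 and 2.10 ± 0.942 TMM-scaled CPM (SD, n = 5 each) in the same order. The log2 difference was -0.52 (SE 0.62) for LPL:VLDL over pcDNA:VLDL, 0.38 (SE 0.62) for GKT136901 + LPL:VLDL over LPL:VLDL and -0.15 (SE 0.61) for GKT136901 + LPL:VLDL over pcDNA:VLDL. Without the library at 0 the first of these was -0.19 and the second 0.043. None passed the edgeR test (adjusted p = 0.999, 1.00 and 0.999), and an SE of this size leaves a wide range of differences possible.

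**Figure D2:**
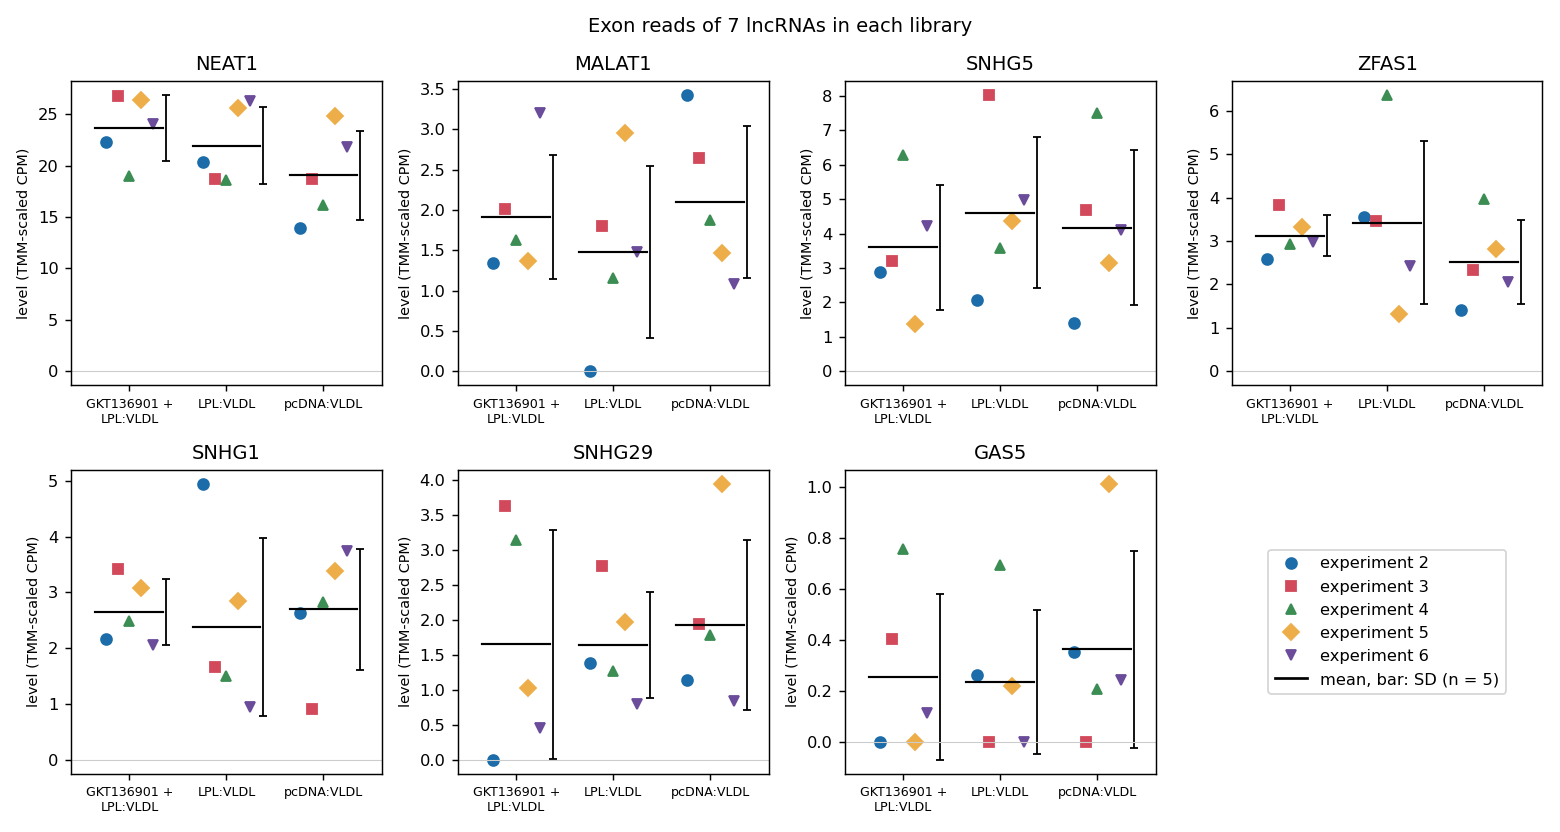
Level of each lncRNA in TMM-scaled CPM (vertical axes, a scale of its own per gene) in every library, by group, with symbols for experiments 2 to 6, lines at the mean and bars of 1 SD (n = 5). The 3 groups overlap in all 7 panels, NEAT1 runs between 13.9 and 26.7, and the other genes reach at most 8.03.

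Among the hosts, SNHG5, which carries SNORD50A and SNORD50B, was the most counted. Its counts in experiments 2 to 6 were 28, 16, 58, 12 and 37 with GKT136901 + LPL:VLDL, 24, 58, 31, 40 and 37 with LPL:VLDL, and 16, 46, 72, 28 and 34 with pcDNA:VLDL. High and low libraries stood in all 3 groups. The log2 differences were 0.14 (SE 0.44), -0.34 (SE 0.45) and -0.21 (SE 0.45) for LPL:VLDL over pcDNA:VLDL, the inhibitor group over LPL:VLDL and the inhibitor group over pcDNA:VLDL.

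ZFAS1, which lies beside ZNFX1 on the opposite strand, had 25, 19, 27, 29 and 26 counts with GKT136901 + LPL:VLDL, 41, 25, 55, 12 and 18 with LPL:VLDL, and 16, 23, 38, 25 and 17 with pcDNA:VLDL. The inhibitor libraries were close together, between 19 and 29 counts, and lay inside the range of the LPL:VLDL libraries. Its log2 differences, in the same order of comparisons as for SNHG5, were 0.45 (SE 0.42), -0.14 (SE 0.42) and 0.31 (SE 0.42). Of the differences over pcDNA:VLDL, that of LPL:VLDL was 0.28 without the pcDNA:VLDL library of experiment 2, 0.68 without that of experiment 4 and 0.058 without the LPL:VLDL library of experiment 4. That of the inhibitor group was 0.13 and 0.53 without the same pcDNA:VLDL libraries.

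SNHG1, the host of 8 listed snoRNAs, had 21, 17, 23, 27 and 18 counts with GKT136901 + LPL:VLDL, 57, 12, 13, 26 and 7 with LPL:VLDL, and 30, 9, 27, 30 and 31 with pcDNA:VLDL. The LPL:VLDL group held both the highest and the lowest count. The log2 differences in that order of comparisons were -0.16 (SE 0.46), 0.12 (SE 0.47) and -0.03 (SE 0.47).

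SNHG29 had 0, 18, 29, 9 and 4 counts with GKT136901 + LPL:VLDL, 16, 20, 11, 18 and 6 with LPL:VLDL, and 13, 19, 17, 35 and 7 with pcDNA:VLDL. Its only 0 was in the inhibitor library of experiment 2. Its log2 differences in that order were -0.23 (SE 0.68), -0.03 (SE 0.69) and -0.26 (SE 0.68).

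GAS5, a gene first found in growth-arrested cells, was the least counted and did not pass the filter. It was therefore tested across genes only in the fit without a filter on low counts. Its counts were 0, 2, 7, 0 and 1 with GKT136901 + LPL:VLDL, 3, 0, 6, 2 and 0 with LPL:VLDL, and 4, 0, 2, 9 and 2 with pcDNA:VLDL. It was at 0 in 5 of the 15 libraries, spread over all 3 groups, and counts this low do not allow a group difference to be judged.

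Every tested lncRNA had an edgeR adjusted p of 0.999, 1.00 and 0.999 in the 3 comparisons. Called members were thus 0 of 6 in each of the 3 group comparisons, where 0% of the 4099 genes tested were called by edgeR (adjusted p under 0.05). At an unadjusted p under 0.05 edgeR gave 77 genes for LPL:VLDL over pcDNA:VLDL, 87 for GKT136901 + LPL:VLDL over LPL:VLDL and 91 for GKT136901 + LPL:VLDL over pcDNA:VLDL, with 0 of the 6 lncRNAs among them. DESeq2 called 0 in each, with 126, 128 and 128 at an unadjusted p under 0.05. In the fit with the experiment, 1 gene (0.0244%) was called for LPL:VLDL over pcDNA:VLDL and 0 in the other comparisons, and no lncRNA of the 7 was called. The groups of all 7 overlapped in every comparison, while 0.561%, 0.488% and 0.512% of tested genes had groups that did not. The median log2 difference of the 6 tested lncRNAs was -0.010, 0.040 and -0.090 in the 3 comparisons, beside 0.0097, -0.019 and -0.0042 over all genes.

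**Figure D3:**
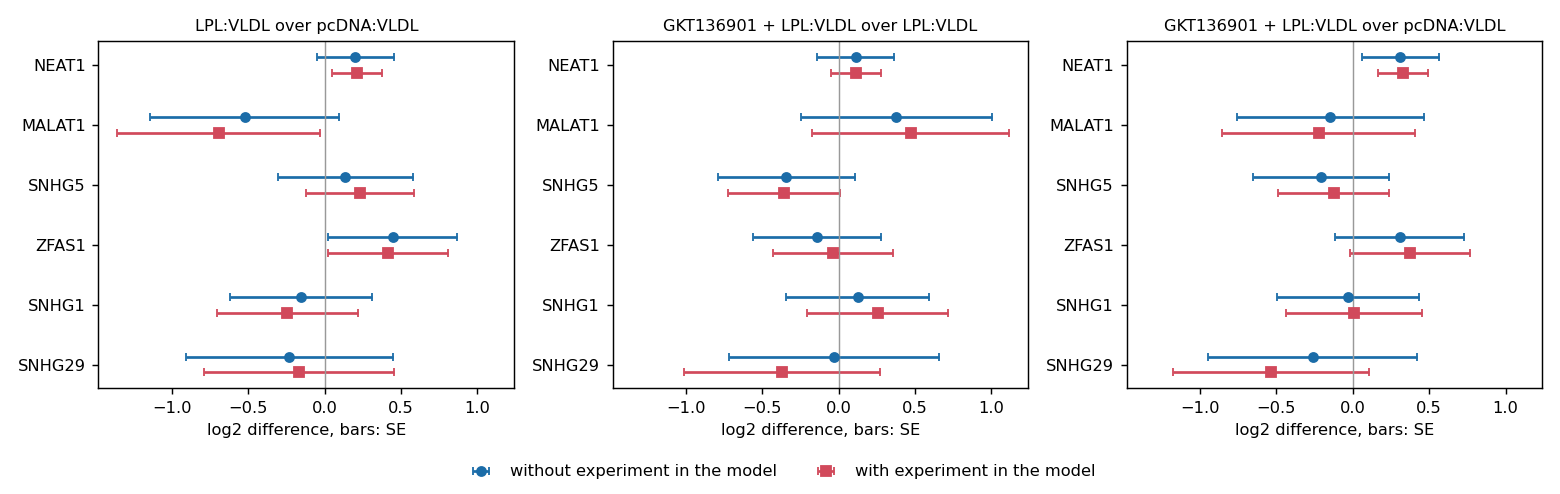
Log2 difference (horizontal axes) of the 6 tested lncRNAs in each comparison, bars SE, without (blue) and with (red) the experiment in the edgeR model. NEAT1 has the smallest error, 0.25 without and 0.16 with the experiment.

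No lncRNA passed the test between experiments either. Of all genes tested, 11.1% (455) were called between experiments in the edgeR fit with group and experiment, against 0 of the 6 lncRNAs; without experiment 2, 145 genes were called. SNHG5 came nearest, with 2.13 ± 0.746, 5.31 ± 2.47, 5.80 ± 2.01, 2.97 ± 1.51 and 4.43 ± 0.466 TMM-scaled CPM (SD, n = 3 each) in experiments 2 to 6 (unadjusted p = 0.0225, edgeR adjusted p = 0.137). It was lowest in experiment 2 and highest in experiment 4. NEAT1 averaged 18.8 ± 4.38, 21.4 ± 4.66, 17.9 ± 1.52, 25.6 ± 0.799 and 24.0 ± 2.24 (edgeR adjusted p = 0.321), lowest in experiment 4 and highest in experiment 5. SNHG29 was lowest in experiments 6 and 2, at 0.702 ± 0.213 and 0.844 ± 0.741, against 2.06 to 2.78 in the others (edgeR adjusted p = 0.305). ZFAS1, SNHG1 and MALAT1 had adjusted p of 0.699, 0.842 and 0.974 in the edgeR test.

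The spread left after the model was lower with the experiment than without it for NEAT1, at a biological coefficient of variation (the relative spread beyond counting error) of 0.195 with it and 0.306 without. For SNHG5 these were 0.371 and 0.478, for SNHG29 0.574 and 0.681, for ZFAS1 0.390 and 0.436, and for SNHG1 0.452 and 0.481. MALAT1 kept 0.600 with the experiment and 0.601 without. Over all genes the values were 0.513 and 0.583. NEAT1, SNHG5, ZFAS1 and SNHG1 thus lay below the table as a whole in both fits, NEAT1 the lowest. MALAT1 and SNHG29 lay above it, MALAT1 by little without the experiment.

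The snoRNAs of the 5 hosts were counted at quite another scale from the host exons. The 26 snoRNAs held 31.6% of all counts, or 41945144 counts, against 1541 counts on the exons of their 5 hosts. For each GAS5 exon count there were 357731 snoRNA counts, for SNHG29 49863, for SNHG1 19399, for SNHG5 17266 and for ZFAS1 3180. Per base that only 1 gene covers, the snoRNAs of SNHG29 were counted 622518 times as often as its exons, those of GAS5 423774, of SNHG5 59958, of SNHG1 51262 and of ZFAS1 12040 times. Of the 5 hosts, GAS5 had the highest snoRNA count when summed over its 10 snoRNAs, and the lowest exon count. These ratios are between fragments and whole small RNAs in a library made for small RNA, and are not ratios of molecules in the cell.

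**Figure D4:**
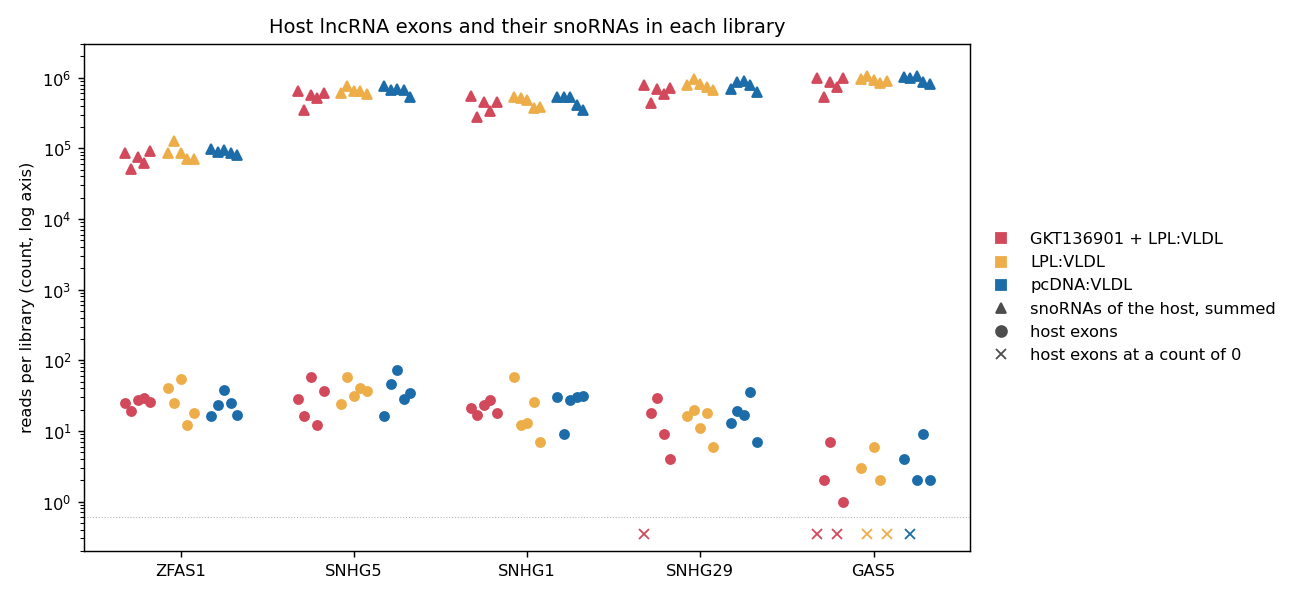
Reads per library (count, log axis) on the exons of each host (circles) and summed over its snoRNAs (triangles), by group, 5 libraries each, crosses under the dotted line for a host count of 0. The snoRNA sums lie between 50531 and 1059262, and the host counts between 0 and 72.

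Within a host, 1 or a few snoRNAs held most of the counts. SNORD49A held 99.9% of the SNHG29 snoRNA counts, SNORD50A 99.4% of those of SNHG5 and SNORD12 87.9% of those of ZFAS1. GAS5 was more even among its top 3, with SNORD44 at 46.4%, SNORD81 at 28.1% and SNORD74 at 22.6%, and SNHG1 had SNORD26 at 55.3%, SNORD30 at 21.9% and SNORD29 at 12.7%. The snoRNAs of 1 host also lay far apart: SNORD44 averaged 48126 ± 8280 TMM-scaled CPM (SD, n = 15) and SNORD77, also in a GAS5 intron, 2.31 ± 1.41. In SNHG29, SNORD49A averaged 84457 ± 16512, SNORD65 86.4 ± 19.7 and SNORD49B, with 29 of its 48 bases in the SNHG29 exon, 0.672 ± 0.696. SNORD49B is also the one that shares the 35-base run with SNORD49A, and reads that map to both genes were not counted.

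**Figure D5:**
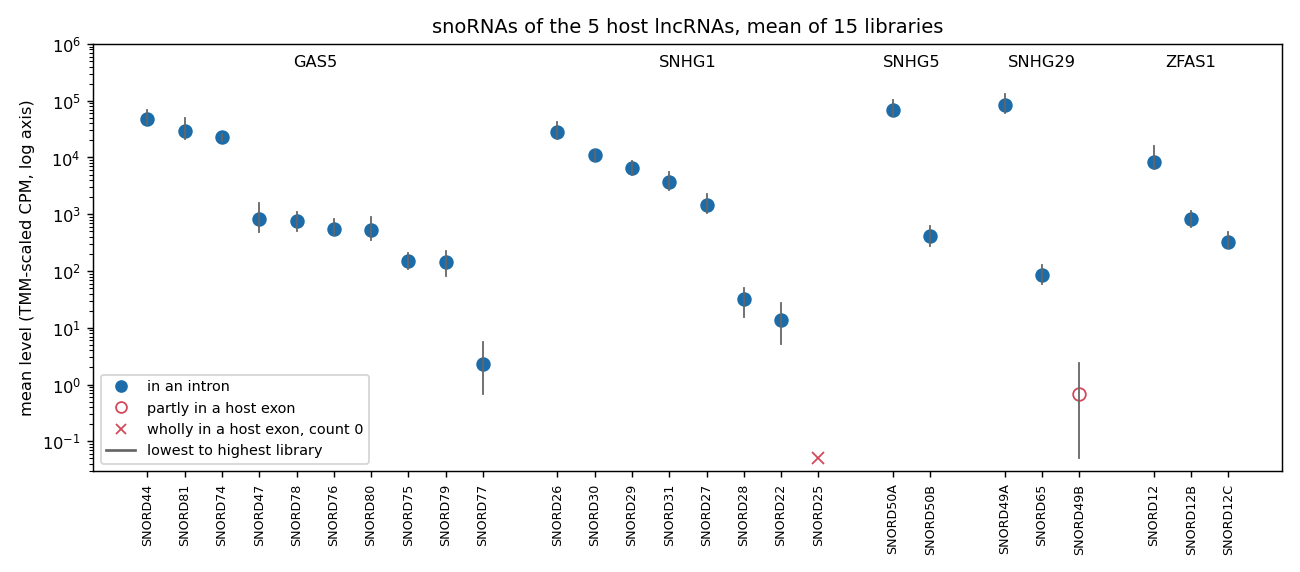
Mean level of each snoRNA in TMM-scaled CPM (log axis), ordered by level within its host, lines from the lowest to the highest of 15 libraries (drawn no lower than 0.05). The 2 snoRNAs in host exons, SNORD25 (cross, count 0) and SNORD49B (open circle, 0.672), are the lowest of their hosts, and SNORD49A (84457) is the highest of all.

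The snoRNA sums varied little between libraries and the host exons more. The SD of log2 level over the 15 libraries was 0.207 to 0.304 for the 5 snoRNA sums and 0.483 to 0.843 for the 5 hosts. For the hosts only, 0.5 CPM was added before the log, which narrows the spread of a gene as low as GAS5. Host counts were far lower and so hold more counting error, whose part in this contrast was not separated. Set per M of snoRNA counts, the host counts ran from 163 to 636 for ZFAS1, from 16.7 to 106 for SNHG1, from 20.8 to 105 for SNHG5, from 0 to 44.6 for SNHG29 and from 0 to 10.4 for GAS5.

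The ratio of host to snoRNA counts, which needs no scaling between libraries, was compared in the 15 combinations of 5 hosts and 3 comparisons by an exact two-sided permutation test (smallest p possible 0.00794). None passed, the lowest adjusted p being 0.877. After adjustment over the 15 tests, however, a single ratio at the smallest possible p could not have passed. The adjusted test thus cannot decide on a difference confined to a single ratio. The lowest unadjusted exact p was 0.127, for ZFAS1 with GKT136901 + LPL:VLDL over pcDNA:VLDL, where the log2 ratio averaged -11.46 ± 0.291 in the inhibitor libraries and -11.92 ± 0.485 in the pcDNA:VLDL libraries (SD, n = 5 each, difference 0.45), higher in 4 of 5 experiments. Paired by experiment, the sign-flip test cannot go below 0.0625, and ZFAS1 gave 0.125 there (exact). SNHG29 differed most in size, by -1.08 in the same comparison, with the inhibitor library at a host count of 0 included (exact p = 0.437), and by -0.07 without that library.

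The 5 top snoRNAs themselves, 1 per host, passed in none of the 3 comparisons. SNORD44 averaged 47250 ± 6053 TMM-scaled CPM with GKT136901 + LPL:VLDL, 52141 ± 12293 with LPL:VLDL and 44987 ± 4333 with pcDNA:VLDL (SD, n = 5 each). Log2 differences of SNORD44, SNORD26, SNORD50A, SNORD49A and SNORD12 were 0.21, 0.17, 0.12, 0.19 and 0.16 for LPL:VLDL over pcDNA:VLDL and -0.14, -0.17, -0.21, -0.22 and -0.23 for GKT136901 + LPL:VLDL over LPL:VLDL (edgeR adjusted p = 0.999 and 1.00). All 5 were highest in the LPL:VLDL library of experiment 3, whose TMM factor, 0.765, was the lowest of the 15. Without that library, an alternative chosen after seeing the data, the 5 differences in the same order of snoRNAs were 0.078, 0.0053, -0.025, 0.014 and -0.14 for LPL:VLDL over pcDNA:VLDL and -0.021, -0.024, -0.075, -0.064 and 0.053 for GKT136901 + LPL:VLDL over LPL:VLDL. By library-size scaling they lay between -0.056 and 0.041 and between -0.088 and -0.013. Between experiments, 12 of the 24 tested host snoRNAs were called, beside 11.1% of all genes. Among the 1156 better-counted genes kept by a stricter filter (minimum count 30), 41.9% were called, so the share called depends on the count. The 12 were 4 of GAS5 (SNORD47, SNORD75, SNORD79, SNORD80), 5 of SNHG1 (SNORD22, SNORD27, SNORD28, SNORD30, SNORD31), and SNORD50B, SNORD65 and SNORD12C. None of the 5 top snoRNAs, 1 per host, was among them, with edgeR adjusted p from 0.0953 for SNORD12 to 0.595 for SNORD50A. SNORD30, with more counts (1478893) than SNORD12 (1106735), was among them.

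Lists of genes of the same pathways were set beside the lncRNAs. In the 3 group comparisons, 0 members of any list were called by edgeR. Since 0 of all 4099 tested genes were called there, any list would have given 0. Of 22 other snoRNA host lncRNAs, 20 had a count and 5 were tested, and their median log2 difference was 0.41 for LPL:VLDL over pcDNA:VLDL, -0.47 for GKT136901 + LPL:VLDL over LPL:VLDL and -0.06 for GKT136901 + LPL:VLDL over pcDNA:VLDL, beside 0.0097, -0.019 and -0.0042 over all genes. Of the 5 tested, 4, 2 and 2 were above 0 in these comparisons. SNHG16 went against the median in the first 2, at -0.79 (SE 0.80) and 0.68 (SE 0.80). SNHG10 averaged 4.54 ± 0.359, 6.32 ± 2.20 and 4.00 ± 1.93 TMM-scaled CPM and SNHG12 1.77 ± 0.157, 3.02 ± 1.58 and 2.27 ± 0.479 (GKT136901 + LPL:VLDL, LPL:VLDL, pcDNA:VLDL, SD, n = 5 each). Of 20 other nuclear and regulatory lncRNAs, 16 had a count and 4 were tested, with TUG1 (2.03 ± 0.793, 2.47 ± 1.58 and 2.44 ± 0.956) and NORAD (1.38 ± 1.27, 2.28 ± 1.64 and 2.698 ± 0.844) the most abundant.

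Paraspeckle protein mRNAs (10 listed, 7 tested), whose products bind NEAT1, included RBM14 at 3.01 ± 1.86, 2.43 ± 2.56 and 2.90 ± 1.53 TMM-scaled CPM in that order of groups. Of the speckle and MALAT1-binding protein mRNAs (9 listed, 8 tested), SRSF1, a splicing factor, stood at 24.3 ± 5.81, 24.6 ± 8.49 and 24.2 ± 3.69 and SRRM2, a speckle scaffold, at 8.90 ± 3.21, 5.79 ± 2.82 and 6.49 ± 1.82. SON, another speckle scaffold, was the only 1 of the 8 called between experiments (edgeR adjusted p = 0.0296), where 11.1% of all genes were. Among mRNAs of the C/D snoRNA proteins (8 listed, 6 with a count), only NOP58 was tested, and it differed by -2.07 (SE 0.94) for LPL:VLDL over pcDNA:VLDL on 117 counts in all (unadjusted p = 0.0360, edgeR adjusted p = 0.999). Nonsense-mediated decay factors (8 listed, 4 tested), which act on spliced hosts, included SMG1 at 1.62 ± 0.682, 1.93 ± 0.912 and 2.42 ± 0.590 and SMG5 at 2.42 ± 1.21, 1.63 ± 0.533 and 1.39 ± 0.605. Of 24 protein-coding C/D snoRNA hosts, 12 were tested, and 3, EEF2 (translation elongation), NCL (nucleolin) and HSPA8 (a chaperone), were called between experiments (edgeR adjusted p = 0.0342, 0.00580 and 0.000296). The share was 11.1% of all genes and 41.9% of those kept by the stricter filter.

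In the 3 comparisons, LPL:VLDL over pcDNA:VLDL, GKT136901 + LPL:VLDL over LPL:VLDL and GKT136901 + LPL:VLDL over pcDNA:VLDL, paraspeckle mRNAs had 3, 4 and 4 of 7 above 0, with median log2 differences of -0.24, 0.27 and 0.017. Speckle and MALAT1-binding mRNAs had 6, 4 and 5 of 8 above 0, with medians of 0.085, 0.15 and 0.12. The other nuclear lncRNAs had 1, 1 and 0 of 4 above 0 (medians -0.11, -0.31 and -0.33), the decay factors 1, 2 and 1 of 4 (medians -0.36, 0.037 and -0.42) and the protein-coding hosts 2, 5 and 2 of 12 (medians -0.22, -0.10 and -0.30). Myeloid markers had 4, 1 and 0 of 10 above 0, with medians of -0.11, -0.41 and -0.41. At an unadjusted p under 0.05, 0, 1 and 2 of these 10 differed: ITGAM by -4.01 in both inhibitor comparisons (unadjusted p = 0.00276 over LPL:VLDL and 0.00272 over pcDNA:VLDL) and MSR1 by -1.54 over pcDNA:VLDL (unadjusted p = 0.00790, all with edgeR adjusted p of 0.999 or 1.00). Over all 4099 genes tested, the share under that cutoff was 1.88%, 2.12% and 2.22% in the 3 comparisons. The SE was 1.22 for both ITGAM differences and 0.54 for that of MSR1. Neither marker was called, so a drop in either was not established. Between experiments, 4 of the 10, CSF1R, ITGB2, SPP1 and LAPTM5, were called by edgeR, and 0 of the 1 tested HEK-293 marker, HMGA2. The share was 11.1% of all genes and 41.9% of those kept by the stricter filter. The part of these markers in the lncRNA values was not tested.

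The genes whose levels ran most alike over the 15 libraries were listed among genes of at least 5 CPM, with Spearman's rho as a description. These points share library, depth scaling and experiment. The genes named are the 3 highest of the 680 to 687 compared with each lncRNA. Their rho is raised by that choice, and no chance level was computed. For NEAT1 they were ND6, a mitochondrial complex I subunit (rho 0.83), MIR326 (0.80) and MIR345 (0.77). For SNHG5 they were the kinase SGK1 (0.86), SNORD19C (0.80) and SLC45A4 (0.80). ZFAS1 ran most like mitochondrial COX1 (0.73) and the transfer RNA genes TRP-AGG1-1 (0.65) and TRR-TCT3-2 (0.64), and SNHG29 like 3 transfer RNA genes, TRL-CAG2-1 (0.73), TRK-TTT3-5 (0.68) and TRG-CCC2-2 (0.68). For MALAT1 they were SLC20A1 (0.66), TRS-TGA3-1 (0.62) and SLC38A2 (0.53), and for SNHG1 CDK6 (0.63), CALR (0.59) and ATP2A2 (0.58). GAS5, which did not pass the filter, was not compared.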

How the data were processed

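The deposited table holds raw counts per gene that the authors did not normalize. Per the file headers, the authors ran featureCounts 2.0.6 on the exons of a RefSeq GRCh38 annotation, without setting strand or admitting reads that map to several places or lie over exons of more than 1 gene. Per the submitters' processing notes, fastp 0.24.0, STAR 2.7.11b and the hg38 build were used.

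The 4099 genes kept by filterByExpr (minimum count 10, minimum total count 15), of 21453 with a count, were tested with edgeR 4.0.16 (R 4.3.3, quasi-likelihood F test, TMM factors, 1 model of 3 groups, Benjamini-Hochberg over all genes, adjusted p under 0.05 called). The method was checked on simulated data, with changes planted only in genes averaging at least 5 CPM. Of the tested lncRNAs only NEAT1 reached that level, so the check does not cover detection of changes in the others. The planted changes were larger than the NEAT1 differences, and no experiment effect was simulated. Changes of the size seen for NEAT1 were thus not covered either. DESeq2 1.42.0 was an alternative. Exon overlaps were computed from the exon coordinates of the table; sequences were cut from GENCODE transcripts at those coordinates. Host to snoRNA ratios, log2 with 0.5 added to both counts, were tested by exact permutation (scipy 1.17.1).

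Replicates 1 to 5 are experiments 2 to 6 in the labels, so the numbers pair the libraries. The correlation of their deviations from the group means was 0.0853 to 0.424 in the 15 pairs of the same experiment (median 0.131). In the 60 pairs of other experiments and other groups it was -0.164 to 0.170 (median -0.0811), so the ranges overlapped. The labels do not say that libraries came from separate cultures, so p-values measure the spread between libraries, which may be partly technical.

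The lncRNAs, their snoRNAs and the gene lists were chosen with earlier results of these data known. Named were the 7 lncRNAs, the snoRNAs of the 5 hosts, list members called or else the 2 most abundant, and the 3 genes most like each lncRNA. The values of 1 list member that this rule names are not reported here. Alternatives were DESeq2, 2 other scalings, 2 filters, the experiment in the model, leaving out libraries, and other snoRNA summaries.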

Additional observations from a re-analysis of the deposited data

How the results depend on the processing

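The lncRNAs stood at 0 calls under every alternative run for the group comparisons and the experiment test (DESeq2, other scalings and filters, the replicate block, left-out libraries), except that GAS5 was tested in the unfiltered fit only and that the stricter filter kept only NEAT1, SNHG5 and ZFAS1. Over all genes, the replicate block called 1 gene for LPL:VLDL over pcDNA:VLDL, and 0 to 2 with libraries or, under the block, experiments left out in turn; it changed no other call. Calls between experiments ranged from 145 to 460 with each experiment left out, the lowest without experiment 2. Signs of the uncalled log2 differences changed in 3 of 99 other settings: SNHG1 in GKT136901 + LPL:VLDL over pcDNA:VLDL was 0.0086 with the replicate block, and by library-size scaling, which moved the median of all genes to -0.11 for LPL:VLDL over pcDNA:VLDL, SNHG5 there was -0.038 and SNHG29 in GKT136901 + LPL:VLDL over LPL:VLDL was 0.061. They also changed in 31 of 360 leave-out fits. Log2 differences that changed sign with a library or experiment left out ran, for LPL:VLDL over pcDNA:VLDL, over MALAT1 -1.26 to 0.015, SNHG1 -0.68 to 0.14, SNHG5 -0.18 to 0.52 and SNHG29 -0.51 to 0.19, for GKT136901 + LPL:VLDL over LPL:VLDL, over SNHG1 -0.066 to 0.71, SNHG29 -0.94 to 0.31 and ZFAS1 -0.36 to 0.25, for GKT136901 + LPL:VLDL over pcDNA:VLDL, over MALAT1 -0.65 to 0.19, SNHG1 -0.39 to 0.27, SNHG5 -0.52 to 0.12 and SNHG29 -1.07 to 0.16. Ratio differences changed sign in 2 of 60 other settings, SNHG29 for LPL:VLDL over pcDNA:VLDL being 0.0067 without its most abundant snoRNA and GAS5 for GKT136901 + LPL:VLDL over LPL:VLDL -0.17 with mean log2 counts, and in 15 of 150 leave-out tests, with ranges, for LPL:VLDL over pcDNA:VLDL, of SNHG5 -0.22 to 0.36 and ZFAS1 -0.0041 to 0.46, for GKT136901 + LPL:VLDL over LPL:VLDL, of GAS5 -0.54 to 0.51, SNHG5 -0.45 to 0.072, SNHG29 -1.28 to 0.24 and ZFAS1 -0.010 to 0.46, for GKT136901 + LPL:VLDL over pcDNA:VLDL, of SNHG1 -0.31 to 0.27 and SNHG5 -0.41 to 0.18. Chosen after seeing the data, library-size scaling turned SNORD26 (-0.0025), SNORD50A (-0.056) and SNORD12 (-0.035) for LPL:VLDL over pcDNA:VLDL, and leaving out the LPL:VLDL library of experiment 3 turned SNORD50A (-0.025) and SNORD12 (-0.14) there and SNORD12 (0.053) for GKT136901 + LPL:VLDL over LPL:VLDL. The causes of these changes were not tested.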
